A study of Mus musculus with 6 samples.

Results

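The genes described here encode the enzymes of glycolysis, the carriers that bring glucose into a cell and lactate out of it, and the oxygen-sensing system with a set of genes that low oxygen induces. The list holds 40 mouse genes chosen by name, 26 of glucose uptake, glycolysis and the start of the pentose phosphate pathway and 14 of the hypoxia response. A gene was measured when at least 1 of its probes was detected on at least 3 of 6 arrays, which held for 32 of the 40, among 9370 genes measured in all. The probes used for these 32 genes were detected on all 6 arrays. They were compared between mannose receptor (MR) negative and MR-positive dendritic cells.

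Mouse bone marrow cells were kept for 1 week in GM-CSF, the cytokine that turns marrow precursors into dendritic cells, which present antigen to T cells. They were then given ovalbumin carrying a fluorescent dye, which the mannose receptor takes up, and were sorted by its uptake into MR-negative and MR-positive cells. RNA of both populations, which share the culture, the growth factor and the ovalbumin, was put on Illumina bead arrays, with 3 arrays of each population titled M1 to M3. The labels give neither strain, genotype nor age of the mice, nor whether M1 to M3 are animals, cultures or days, so every p-value here rests on the spread between arrays, which may be technical.

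In glycolysis, glucose is phosphorylated by a hexokinase, split after a further phosphorylation by phosphofructokinase, and oxidised to pyruvate, which lactate dehydrogenase can turn into lactate. When oxygen falls, prolyl hydroxylases of the Egln family no longer mark the transcription factor HIF-1α for destruction, and it induces many glycolytic genes together with Vegfa and other targets. Dendritic cells are known to raise glycolysis when they are activated by microbial products, and HIF-1α is stabilised in activated myeloid cells also when oxygen is plentiful.

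Each array held 45281 probes, of which 35.3% to 36.8% were detected. The labels were checked on Mrc1, the mannose receptor gene: its log2 difference by limma was 2.64 ± 0.39 (6.21-fold higher in MR-positive cells, adjusted p = 0.0051). Of 9 dendritic cell markers Flt3 was detected on no array, Zbtb46 and Dpp4 were detected on the 3 MR-negative and on 0 MR-positive arrays, and the other 6 were detected on all 6 arrays. Of 8 such markers tested, 7 fell in MR-positive cells and 1 rose, Itgax (1.22 ± 0.19, adjusted p = 0.0064 by limma). Their summed normalized intensity on a linear scale was 43227 to 52556 in MR-negative and 21145 to 27955 in MR-positive cells. The MHC class II genes Cd74, H2-Ab1, H2-Eb1 and H2-Aa, by far the brightest of them, weigh most in these sums. All 8 markers of mature dendritic cells fell, with sums of 4846 to 7586 against 1066 to 1152. Among them Ccl22 was detected on the 3 MR-negative and on 0 MR-positive arrays, so it was kept through the population where it is high. Of 14 T and NK cell markers 5 were tested, of which 3 fell and 1 rose, with sums of 1970 to 4981 against 144 to 172. Cd3d, which fell, was detected on 3 MR-negative and 0 MR-positive arrays, and Cd2, which rose, on 0 and 3. Both were thus kept through the population where they are high. Cd4, Cd8a, Nkg7, Ncr1 and Klrb1c were detected on no array. Of 8 macrophage markers tested 2 rose by limma, Mertk (2.10 ± 0.28, adjusted p = 0.0033) and C1qc (1.27 ± 0.28, adjusted p = 0.026), and 0 fell. Once the title number was a term of the fit 4 were higher, C1qb and Cd14 being added, and 1 was lower (Fcgr1). The sums of the 8 were 6535 to 8268 against 9042 to 9921. Cd14, the brightest of the 8, weighs most in these sums, and it did not pass unblocked by limma (0.66 ± 0.18, adjusted p = 0.053). Adgre1 and Csf1r, the next brightest, differed by -0.18 and -0.08 and passed in neither fit. Neutrophil markers, 8 tested, 0 called by limma and 5 lower at an unadjusted p under 0.05, summed to 5363 to 17587 against 3363 to 5714. S100a8 and S100a9, by far the brightest of them, make up most of these sums, and Mmp8 differed by 0.03. With the title number as a term of the fit 6 of the 8 were lower. Sums of the 5 tested cycling markers were highest on both M1 arrays, at 1927 and 1320, against 252 to 526 on the others. The part of these cell types in the differences below was not tested, and in sorted bulk RNA fewer cells of a type and less RNA per cell cannot be told apart.

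How many of the glycolytic and hypoxia genes differed between the populations depends on the fit. Members called were 2 in the fit on population alone and 9 with arrays of the same title number paired. Unpaired, they were 10 with array weights, and 0 to 4 with 1 array left out. On population alone, 2 of the 32 measured members rose in MR-positive cells and 0 fell. The other 30 did not pass an adjusted p of 0.05 in limma's test. Both that rose are enzymes of glycolysis: Hk3, a hexokinase of myeloid cells, and Eno2, the enolase named after neurons. That is 6.25% of the members beside 15.3% of all 9370 genes, of which 8.19% rose and 7.13% fell. At an unadjusted p under 0.05, 5 members were higher and 3 lower, 1 and 2 of these being hypoxia genes, which is 8 of 32 members beside 29.3% of all genes (16.1% higher and 13.2% lower). The 20 members of glucose uptake and glycolysis had a median log2 difference of 0.09, which turned to -0.07 when the arrays were scaled to equal medians (a scaling that also moved the median of all genes from 0.02 to -0.11), and the 12 hypoxia members had a median of -0.10, or -0.26 with that scaling. The median size of the difference, whatever its sign, was 0.20 over the members and 0.22 over all genes.

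The 95% interval lay within 2-fold in both directions for 27 of 32 members (84.4%), and for 79.2% of all genes. These intervals rest on the spread between arrays, which may be technical. Some belong to members that read near background, such as Ldhb (4.59 to 4.92 in normalized log2 intensity) and Egln1 (5.08 to 5.57). The dimmest detected probes stood at 4.51 to 4.56. Near background the offset used in the processing can understate a fold, so a narrow interval there does not bound the true difference. In 26 members the estimate was under 0.5 in size on the log2 scale. Only Hk3 and Eno2 differed by at least 1 log2 unit, 6.25% of the members beside 7.03% of all genes. The values of the MR-positive arrays lay wholly above or below those of the MR-negative arrays in 9 members (28.1%), 6 above and 3 below, beside 34.6% of all genes.

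**Figure D1:**
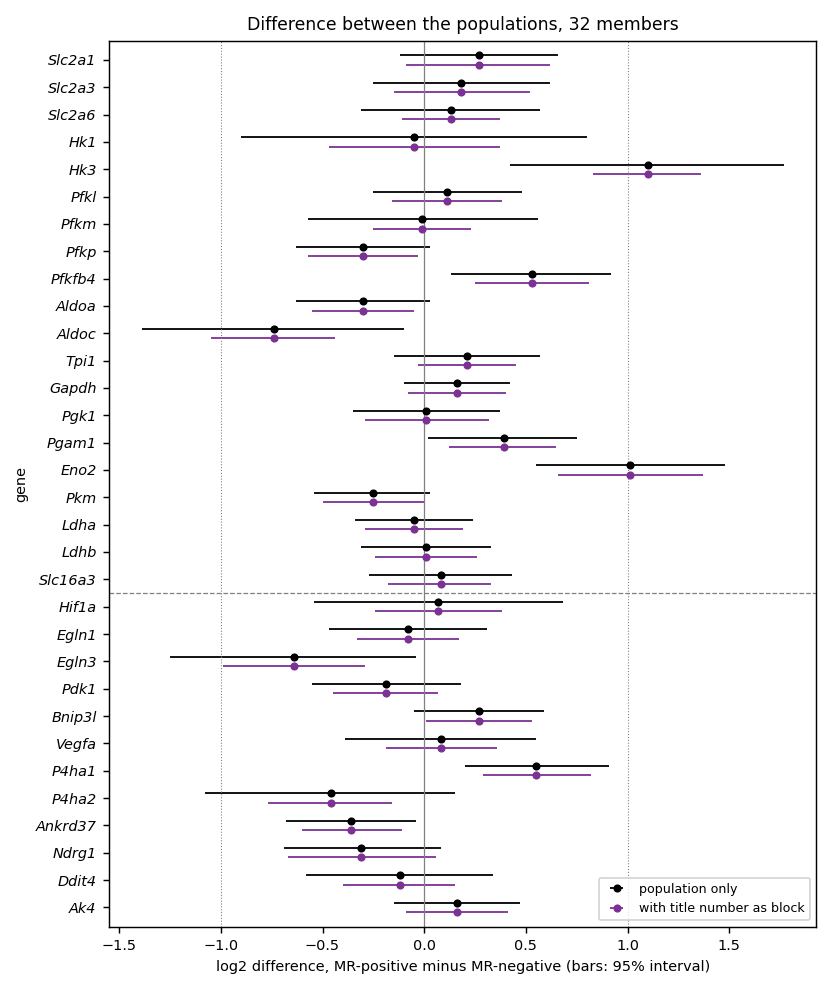
Log2 difference, MR-positive minus MR-negative cells (x axis), for each of the 32 measured members (y axis), with 95% intervals as bars. Black points come from the fit on population alone and purple points from the fit with the title number as a block. Hk3 and Eno2 stand to the right at 1.10 and 1.01, and most other members lie close to 0.

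Deviations from the population mean correlated between arrays of the same title number, at 0.708 for M1, 0.569 for M2 and 0.275 for M3. The value for M3 was below those between M2 and M3 arrays of unlike number (0.290 and 0.382). The numbers thus set M1 apart more clearly than they part M2 from M3. The comparison was repeated with the number as a block, which sets each MR-positive array against the MR-negative array of its own number. Then 9 members passed (28.1%), beside 30.0% of all genes (16.4% higher and 13.6% lower). Higher in MR-positive cells were Hk3, Eno2, Pfkfb4, Pgam1 and P4ha1, and lower were Aldoc, Egln3, P4ha2 and Ankrd37. Estimates are the same in both fits, and only their errors differ. Without the M1 pair 7 members passed, Egln3 and Ankrd37 being lost. Without the M2 pair 4 passed, with Pfkfb4, Pgam1, P4ha1, P4ha2 and Ankrd37 lost, and without the M3 pair 6 passed, with Pgam1, P4ha2 and Ankrd37 lost. Hk3, Eno2 and Aldoc passed in each of these.

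**Figure D2:**
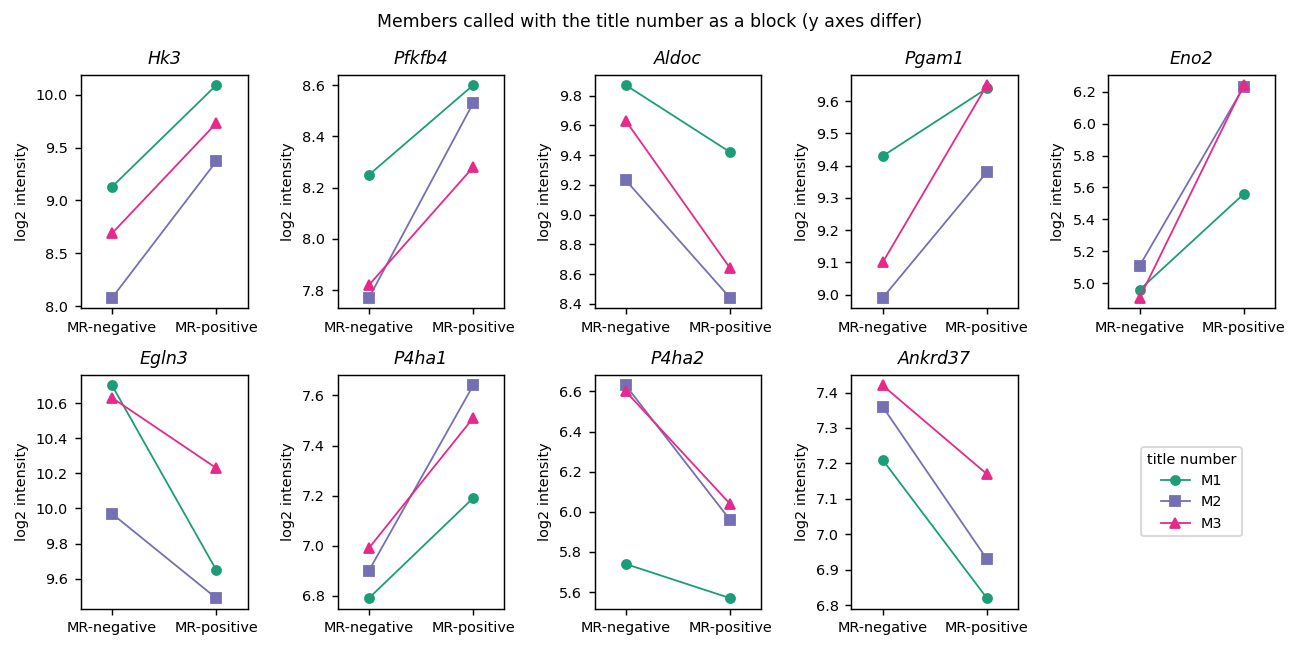
Normalized log2 intensity (y axes, which differ in range) of the 9 members that passed with the title number as a block, in MR-negative and MR-positive cells (x axis). Each line joins the 2 arrays of a title number, M1, M2 or M3. All 3 lines go up in Hk3, Pfkfb4, Pgam1, Eno2 and P4ha1, and all 3 go down in Aldoc, Egln3, P4ha2 and Ankrd37.

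Promoters are shown for the 2 members called without the block, for Pgk1, a classical HIF-1α target whose difference was near 0, and for P4ha1, P4ha2 and Egln3, hypoxia genes that passed with the block, P4ha1 higher and the others lower. They are the 250 bases before the gene's start in RefSeq's annotation of build GRCm38.p6, printed 5′ to 3′ on the gene's own strand. The places are chr13:55021386-55021635 (minus strand) for Hk3, chr6:124769674-124769923 (minus) for Eno2, chrX:106186850-106187099 (plus) for Pgk1, chr10:59323046-59323295 (plus) for P4ha1, chr11:54100674-54100923 (plus) for P4ha2 and chr12:54203875-54204124 (minus) for Egln3. Capitals mark ACGTG, the core that HIF-1 binds in many of its targets, or its complement CACGT.
Hk3: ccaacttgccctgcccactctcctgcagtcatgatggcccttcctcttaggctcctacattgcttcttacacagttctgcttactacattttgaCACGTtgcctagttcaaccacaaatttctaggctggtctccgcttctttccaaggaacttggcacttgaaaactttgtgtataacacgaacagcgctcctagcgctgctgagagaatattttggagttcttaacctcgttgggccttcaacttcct
Eno2: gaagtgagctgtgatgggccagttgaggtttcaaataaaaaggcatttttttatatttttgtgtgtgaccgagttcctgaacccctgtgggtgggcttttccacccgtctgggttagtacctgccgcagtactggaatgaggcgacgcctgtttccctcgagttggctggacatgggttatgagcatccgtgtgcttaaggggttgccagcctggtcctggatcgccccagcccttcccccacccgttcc
Pgk1: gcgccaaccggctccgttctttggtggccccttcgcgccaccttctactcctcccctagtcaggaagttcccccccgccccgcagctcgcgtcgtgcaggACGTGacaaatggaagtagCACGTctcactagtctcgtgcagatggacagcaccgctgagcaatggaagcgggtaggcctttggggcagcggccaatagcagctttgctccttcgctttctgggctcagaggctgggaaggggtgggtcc
P4ha1: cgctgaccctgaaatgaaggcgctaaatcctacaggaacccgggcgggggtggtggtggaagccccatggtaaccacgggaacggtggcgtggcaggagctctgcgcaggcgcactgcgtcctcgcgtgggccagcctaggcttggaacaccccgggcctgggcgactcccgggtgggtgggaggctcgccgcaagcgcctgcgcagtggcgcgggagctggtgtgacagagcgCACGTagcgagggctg
P4ha2: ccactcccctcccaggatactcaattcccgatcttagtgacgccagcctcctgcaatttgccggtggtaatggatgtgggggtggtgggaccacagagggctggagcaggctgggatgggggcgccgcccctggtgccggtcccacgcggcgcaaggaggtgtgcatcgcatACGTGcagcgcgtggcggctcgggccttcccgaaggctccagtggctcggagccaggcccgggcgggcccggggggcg
Egln3: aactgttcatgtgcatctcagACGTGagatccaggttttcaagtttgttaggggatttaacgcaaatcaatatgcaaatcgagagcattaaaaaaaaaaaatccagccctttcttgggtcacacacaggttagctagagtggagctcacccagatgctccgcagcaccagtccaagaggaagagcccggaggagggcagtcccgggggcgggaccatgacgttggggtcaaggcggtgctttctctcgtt
Hk3 had 1 match, beginning 156 bases before the start, P4ha1 had 1 at 16, P4ha2 1 at 78 and Egln3 1 at 229. Pgk1 had 2, at 150 and 131 bases, and Eno2 had 0 in this window.

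Both strands were searched, and a gene with several starts was counted when any of its windows held a match. The letters ACGTG are also part of CACGTG, the E-box that other factors bind. Of the 32 members 29 had a window, all but Slc2a3, Bnip3l and Ndrg1. ACGTG stood in 18 of the 29 (62.1%), in 18.5% of 27025 genes with a window, and in 25.8% of the 7673 such genes measured on these arrays. It stood in 9 of 10 hypoxia members (90.0%), all but Pdk1, and in 9 of 19 of glucose uptake and glycolysis (47.4%). The share was 6 of 9 (66.7%) among members that passed with the block and 12 of 20 (60.0%) among the others. The related core GCGTG stood in 69.0% of members, 30.9% of all genes and 49.9% of the genes measured. A match describes these letters only and shows no binding.

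Facilitative sugar transporters carry glucose across membranes, and 3 of the members measured belong to this family. Slc2a1, the widely used transporter GLUT1, read 10.23, 9.66 and 9.95 (normalized log2 intensity) on the MR-negative arrays M1, M2 and M3, and 10.17, 10.34 and 10.13 on the MR-positive ones. The populations overlapped, since the MR-negative array of M1 was above 2 of the 3 MR-positive arrays. This gave a log2 difference of 0.27 ± 0.17 (SE, 95% interval -0.12 to 0.66, adjusted p = 0.36). Slc2a3, the high-affinity transporter GLUT3, differed by 0.18 ± 0.19 and Slc2a6, the transporter GLUT6, by 0.13 ± 0.19, and neither passed (adjusted p = 0.60 and 0.72). For both, the 2 M1 arrays read above the other arrays of their population.

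Hexokinases catalyse the step that traps glucose in the cell. Hk3 read 9.13, 8.08 and 8.69 on the MR-negative arrays and 10.09, 9.37 and 9.73 on the MR-positive arrays. Every MR-positive array was above every MR-negative one, and within each title number the gap was 0.96, 1.29 and 1.04. In MR-positive cells Hk3 stood 2.14-fold higher (log2 difference 1.10 ± 0.29, 95% interval 0.42 to 1.77, adjusted p = 0.046), and with the block its error shrank to 0.11 (adjusted p = 5.7e-04). The unblocked call was close to the threshold: of the 6 arrays only the MR-negative array of M1 could be left out with Hk3 still passing. Leaving out the MR-negative array of M2 or M3 gave an adjusted p of 0.11 or 0.13, and leaving out the MR-positive array of M1, M2 or M3 gave 0.11, 0.065 or 0.14, while the log2 difference stayed between 0.82 and 1.34 in all alternatives run. Of the processing alternatives, it did not pass with normexp at offset 50 (0.052), with equal medians (0.068) or when dim probes were kept (0.20).

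Hk1, the hexokinase found in most tissues, read 6.94, 5.62 and 5.69 on the MR-negative arrays and 6.38, 5.65 and 6.07 on the MR-positive arrays. The highest values of both populations were those of M1. Its log2 difference was -0.05 ± 0.37 (95% interval -0.90 to 0.80, adjusted p = 0.95), the widest interval among the members, and it ran from -0.28 to 0.38 as each array was left out in turn. The annotation names no probe for Hk2, the hexokinase that HIF-1α and insulin induce, nor for Gpi1, the isomerase of the next step, and they were not analysed here.

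Phosphofructokinase is the step at which glycolysis is most tightly regulated. Its liver-type gene Pfkl (0.11 ± 0.16, adjusted p = 0.72) and its muscle-type gene Pfkm (-0.01 ± 0.24, adjusted p = 0.99) did not pass. Pfkp, the platelet-type gene, read 9.86, 9.60 and 10.03 on the MR-negative arrays and 9.57, 9.49 and 9.52 on the MR-positive ones. The MR-positive values lay wholly below, yet the difference of -0.30 ± 0.14 did not pass in either fit (adjusted p = 0.22, and 0.098 with the block). With array weights it passed unblocked by limma (adjusted p = 0.028). In a dimmer Pfkp probe the populations overlapped, and its difference of -0.15 ± 0.15 passed in neither fit (adjusted p = 0.60, and 0.43 with the block).

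Pfkfb4 makes and breaks down fructose 2,6-bisphosphate, the activator of phosphofructokinase. It read 8.25, 7.77 and 7.82 on the MR-negative arrays and 8.60, 8.53 and 8.28 on the MR-positive arrays. All 3 MR-positive arrays were above the MR-negative ones, by a margin of hundredths between the closest arrays. The means differed by 0.53 ± 0.17 on the log2 scale, a 1.44-fold higher mean (95% interval 0.13 to 0.92, adjusted p = 0.084), and it passed with the block (adjusted p = 0.016). Leaving out the MR-negative array of M1, it passed unblocked too (log2 difference 0.68, adjusted p = 0.023). Its relative Pfkfb3, which is often induced by inflammatory stimuli, was detected on 2 arrays, the MR-negative arrays of M1 and M2, and was not tested.

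The aldolases split the phosphorylated sugar. Aldoc, the aldolase named after brain, read 9.87, 9.23 and 9.63 on the MR-negative arrays and 9.42, 8.44 and 8.64 on the MR-positive arrays. The populations overlapped through the MR-positive array of M1, but within each title number the MR-positive array was lower, by 0.45, 0.79 and 1.00. The means differed by -0.74 ± 0.28 on the log2 scale, a 1.68-fold lower mean in MR-positive cells, which did not pass in the unblocked fit (adjusted p = 0.13) and passed with the block (adjusted p = 0.0059). With the MR-positive M1 array left out it also passed unblocked (log2 difference -1.04, adjusted p = 0.024). A dimmer Aldoc probe differed by -0.59 ± 0.26 (adjusted p = 0.20, and 0.043 with the block). Aldoa, the aldolase of muscle and most other tissues, differed by -0.30 ± 0.14 (adjusted p = 0.22).

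The enzymes of the middle of the pathway had small estimates. Gapdh, the dehydrogenase that is widely taken as a reference gene, read 12.75, 12.66 and 12.71 on the MR-negative arrays and 12.86, 12.81 and 12.94 on the MR-positive arrays. The MR-positive values lay wholly above, by a small step: the log2 difference was 0.16 ± 0.11 (95% interval -0.10 to 0.42, adjusted p = 0.41), and with equal medians it turned to -0.18. Tpi1, the triose phosphate isomerase, differed by 0.21 ± 0.16 and Pgk1, the phosphoglycerate kinase whose promoter is shown above, by 0.01 ± 0.15 (95% interval -0.35 to 0.37), and neither passed (adjusted p = 0.45 and 0.97). With equal medians these became -0.03 and -0.14.

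Pgam1, the phosphoglycerate mutase, read 9.43, 8.99 and 9.10 on the MR-negative arrays and 9.64, 9.38 and 9.65 on the MR-positive arrays. The populations overlapped because the MR-negative array of M1 was above the MR-positive array of M2, while the pairs differed by 0.21, 0.39 and 0.55. The log2 difference was 0.39 ± 0.16 (adjusted p = 0.16, and 0.041 with the block), and a dimmer probe at 0.33 ± 0.21 passed in neither fit (0.37 and 0.17).

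Enolase makes phosphoenolpyruvate. Eno2 read 4.96, 5.11 and 4.91 on the MR-negative arrays, not far above the 4.51 to 4.56 at which the dimmest detected probes stood, and 5.56, 6.23 and 6.24 on the MR-positive arrays. Every MR-positive array was above every MR-negative one, with M1 the lowest of the 3. In MR-positive cells Eno2 stood 2.02-fold higher (log2 difference 1.01 ± 0.20, 95% interval 0.55 to 1.48, adjusted p = 0.016, and 0.0031 with the block). Its call was lost when the MR-negative array of M3 was left out (adjusted p = 0.072), when either the M2 or the M3 array of MR-positive cells was (0.068 and 0.071), and when dim probes were kept (0.076), and it passed in 17 of 21 alternatives. Its log2 difference ran from 0.54, with normexp at offset 50, to 1.24. No probe was named for Eno1, the enolase of most tissues. A probe of Eno1b, a copy close to Eno1 that is no member, differed by 0.04 ± 0.20 (adjusted p = 0.92).

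The last steps make pyruvate and lactate. Ldha, the lactate dehydrogenase subunit of glycolytic cells, read 12.06, 11.92 and 12.09 on the MR-negative arrays and 12.08, 11.84 and 12.00 on the MR-positive arrays. The values overlapped fully, and the log2 difference was -0.05 ± 0.12 (95% interval -0.34 to 0.24, adjusted p = 0.85). Pkm, the pyruvate kinase of most tissues, was lower on every MR-positive array (-0.25 ± 0.12) but did not pass (adjusted p = 0.23, and 0.12 with the block). With array weights it passed unblocked by limma (adjusted p = 0.034). Ldhb, the other lactate dehydrogenase subunit, differed by 0.01 ± 0.14, and Slc16a3, the lactate exporter MCT4, by 0.08 ± 0.15. Of the pentose phosphate members, G6pdx had no named probe and Pgd was detected on no array, so neither was tested.

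**Figure D3:**
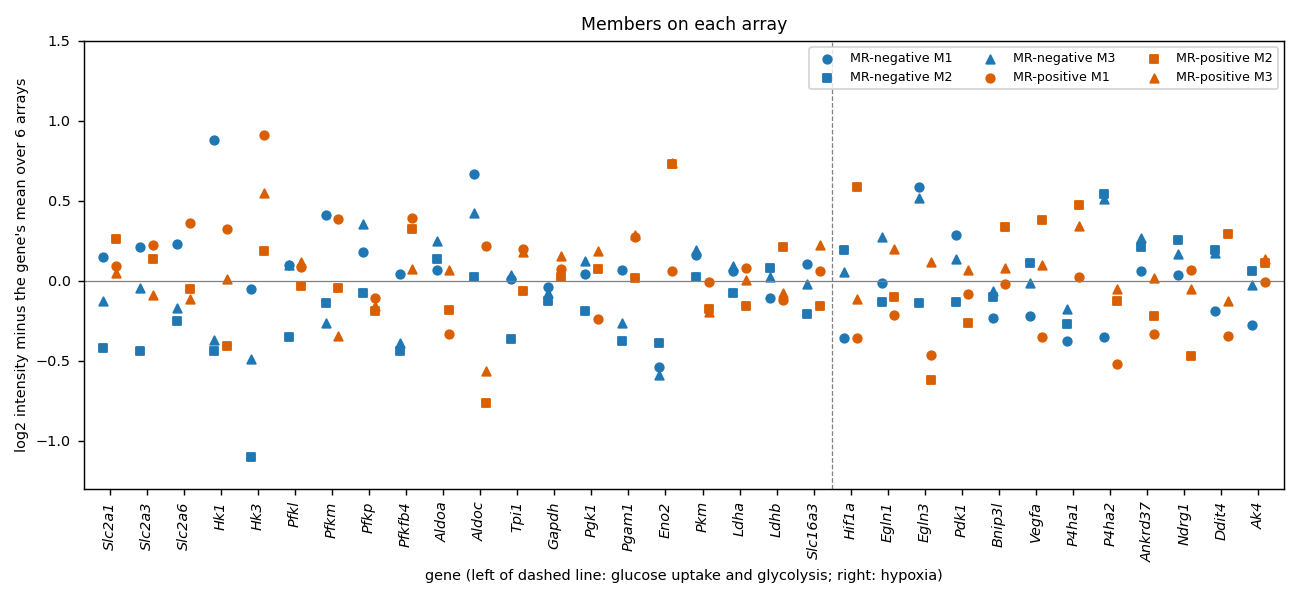
Normalized log2 intensity of each member on each array minus its mean over the 6 arrays (y axis), for the 32 measured members (x axis), glucose uptake and glycolysis to the left of the dashed line and hypoxia genes to the right. Blue marks are MR-negative and orange marks MR-positive arrays, and the shape gives the title number. Hk3 and Eno2 are the members in which orange lies farthest above blue, and Hk1 and Hif1a show a spread between title numbers that is wider than the step between populations.

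The oxygen sensors and their target factor showed no common step. Hif1a, the oxygen-regulated subunit of HIF-1, read 6.63, 7.18 and 7.04 on the MR-negative arrays and 6.63, 7.57 and 6.87 on the MR-positive arrays. M1 was lowest in both populations and the values overlapped. Their means differed by 0.07 ± 0.26 in log2 (95% interval -0.54 to 0.68, adjusted p = 0.90). HIF-1α is controlled mainly by the stability of its protein, which these arrays do not measure.

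Egln3, a HIF prolyl hydroxylase that HIF-1α itself induces, read 10.70, 9.97 and 10.63 on the MR-negative arrays and 9.65, 9.49 and 10.23 on the MR-positive arrays. The populations overlapped because the MR-positive array of M3 was above the MR-negative array of M2, but each MR-positive array was below its partner, by 1.06, 0.48 and 0.40. The log2 difference was -0.64 ± 0.26, a 1.56-fold lower mean in MR-positive cells (adjusted p = 0.16, and 0.018 with the block). A dimmer Egln3 probe, detected on 2 MR-negative arrays and 1 MR-positive array, differed by -0.24 ± 0.15 (adjusted p = 0.35). Egln1, the main hydroxylase that marks HIF-1α, differed by -0.08 ± 0.17 (adjusted p = 0.81) and by 0.18 ± 0.16 in a dimmer probe.

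Vegfa, the angiogenic growth factor and a usual readout of hypoxia, read 9.81, 10.14 and 10.02 on the MR-negative arrays and 9.68, 10.41 and 10.13 on the MR-positive arrays. M1 was lowest in both populations, and the step of 0.08 ± 0.20 was within the spread (95% interval -0.39 to 0.55, adjusted p = 0.85). Pdk1, which keeps pyruvate out of the mitochondria, differed by -0.19 ± 0.16 (adjusted p = 0.51). Bnip3l, a receptor for the removal of mitochondria, was higher on every MR-positive array (0.27 ± 0.14) but passed in neither fit (adjusted p = 0.26, and 0.12 with the block).

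P4ha1 and P4ha2 encode alternative catalytic subunits of the prolyl hydroxylase that collagen needs, and both are known hypoxia genes. P4ha1 read 6.79, 6.90 and 6.99 on the MR-negative arrays and 7.19, 7.64 and 7.51 on the MR-positive arrays. All MR-positive arrays were above the MR-negative ones. The log2 difference of 0.55 ± 0.15, a 1.47-fold higher mean, just missed the threshold (95% interval 0.20 to 0.91, adjusted p = 0.051, and 0.010 with the block). It passed unblocked when the MR-positive M1 array was left out (0.026), with normexp at offset 50 (0.044) and without background correction (0.045). The authors' own normalized values gave the same result as the fit without background correction and are no separate support. A dimmer P4ha1 probe differed by 0.47 ± 0.28 (adjusted p = 0.34, and 0.020 with the block).

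P4ha2 read 5.74, 6.63 and 6.60 on the MR-negative arrays and 5.57, 5.96 and 6.04 on the MR-positive arrays. M1 was lowest in both populations, so the populations overlapped, and the pairs differed by -0.16, -0.67 and -0.56. The log2 difference was -0.46 ± 0.26 (adjusted p = 0.31, and 0.034 with the block). With the MR-negative M1 array left out it was -0.76 and passed unblocked (adjusted p = 0.027), and a dimmer probe at -0.19 ± 0.19 passed in neither fit (0.59 and 0.31). With the block, then, the P4ha1 and P4ha2 estimates passed with opposite signs, though the difference between them was not tested.

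Ankrd37, an ankyrin repeat gene known as a HIF-1α target, read 7.21, 7.36 and 7.42 on the MR-negative arrays and 6.82, 6.93 and 7.17 on the MR-positive arrays. The MR-positive values lay wholly below. The estimate was -0.36 ± 0.14 (adjusted p = 0.14, and 0.040 with the block), and with equal medians it passed unblocked (-0.51, adjusted p = 0.033).

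The remaining hypoxia members did not pass. Ndrg1, a stress-induced gene, differed by -0.31 ± 0.17 (adjusted p = 0.29), and a dimmer probe at -0.46 ± 0.14 came nearer to the threshold (adjusted p = 0.076, and 0.044 with the block). Ddit4, an inhibitor of the growth kinase mTOR, differed by -0.12 ± 0.20 and Ak4, a mitochondrial adenylate kinase, by 0.16 ± 0.13 (adjusted p = 0.76 and 0.51). Bnip3, a mitochondrial hypoxia gene, and Ero1l, an oxidase of the endoplasmic reticulum listed under its current name Ero1a, were detected on no array. The Bnip3 probe read 23.8 to 28.4 in non-normalized intensity, with a detection p of 0.38 to 0.78, that is, not above background.

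In some members both M1 arrays stood apart from all other arrays, at shares near those of all genes. In Slc2a3, Slc2a6, Hk1 and Pfkm the M1 arrays were the highest of both populations (12.5% of members, 14.3% of all genes), and in Ldhb, Vegfa, P4ha2, Hif1a and Ddit4 they were the lowest (15.6% and 14.6%). Of these members P4ha2 was also lower in every pair and passed with the block, and Ldhb read near background. Summed cycling and neutrophil marker levels also stood highest on the MR-negative array of M1, and their part in the M1 values of members was not tested.

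Other genes of these pathways were taken from 7 further lists, with 89 measured genes. Of these 8 passed (8.99%, beside 15.3% of all genes), and 29 with the block (32.6%, beside 30.0%), and their median log2 difference was 0.00. Of 10 other glycolytic enzymes and carriers 1 fell, Gpd2, the mitochondrial glycerol phosphate dehydrogenase (-0.74 ± 0.19, adjusted p = 0.040). With the block Eno3, an enolase of muscle (-0.74 ± 0.22), and Adpgk, a glucokinase that uses ADP (-0.49 ± 0.15), were also lower and G6pc3, a glucose 6-phosphatase, was higher (0.43 ± 0.13). Of 8 genes that pass pyruvate to the mitochondria 1 fell, Pdk3, a pyruvate dehydrogenase kinase (-0.57 ± 0.13, adjusted p = 0.031), and with the block Pdp1, the phosphatase that opposes such kinases, was higher (0.87 ± 0.24, adjusted p = 0.055 without the block and 0.0011 with it).

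Of 9 further pentose phosphate genes Prps2 rose (0.74 ± 0.16, adjusted p = 0.022) and Prps1 fell (-0.54 ± 0.14, adjusted p = 0.040), both synthetases of phosphoribosyl pyrophosphate. Of 14 glycogen genes 1 rose, Ppp1r3b, which brings a phosphatase to glycogen (0.79 ± 0.14, adjusted p = 0.011). With the block 4 glycogen genes were higher (Ppp1r3b, Ugp2, Gaa and Phka2) and 3 lower (Pygb, Phkg2 and Ppp1r3d). Apart from Prps1, Prps2 and Ppp1r3b these calls rest on the block.

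None of the 11 measured oxygen-sensing genes passed in limma's unblocked fit, where the smallest p-values were those of Vhl, the ubiquitin ligase subunit that recognises HIF-1α (-0.85 ± 0.27, adjusted p = 0.082), and its partner Elob (-0.33 ± 0.13, adjusted p = 0.14). Both were below on every MR-positive array and passed with the block (0.0012 and 0.048), and they were the 2 of the 11 at an unadjusted p under 0.05. Vhl read 7.28, 7.83 and 7.97 on the MR-negative arrays and 6.33, 7.01 and 7.20 on the MR-positive arrays. Epas1, which encodes HIF-2α, was detected on no array.

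Of 25 other hypoxia-induced genes 1 rose, Insig2, which retains sterol sensors in the endoplasmic reticulum (0.61 ± 0.13, adjusted p = 0.018). With the block 9 of the 25 were higher and 1 was lower, Zfp292 (-0.45 ± 0.15), where 16.4% of all genes were higher and 13.6% lower. The 9 included Hilpda, a lipid droplet protein (0.78 ± 0.25, adjusted p = 0.0022 with the block), Hmox1, heme oxygenase (0.87 ± 0.43, 0.0032), and Rora, a nuclear receptor (0.74 ± 0.24, 0.0027). In these 3 each MR-positive array was above the MR-negative array of its number, although the populations overlapped. Plin2, Arg1, Anxa2, Plod1, Mxi1 and Insig2 were the others. Of 14 regulators of glucose metabolism 2 passed. Ppargc1b, a transcriptional coactivator of mitochondrial genes, was detected on 3 MR-positive arrays but on 1 MR-negative array, so it was kept through the population where it is high and its difference is partly one from background. The fit gave 1.20 ± 0.21 (adjusted p = 0.011), and 0.57 with normexp at offset 50. Mtor, the growth kinase itself, fell (-0.45 ± 0.12, adjusted p = 0.045).

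Each of the 8 calls in these lists was lost without at least 1 array, with an adjusted p of up to 0.14 for Gpd2 and for Prps1, 0.16 for Mtor, 0.11 for Pdk3, 0.078 for Prps2, 0.075 for Insig2, 0.055 for Ppargc1b and 0.052 for Ppp1r3b. Genes named here only from the blocked fit were chosen after their values were seen.

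**Figure D4:**
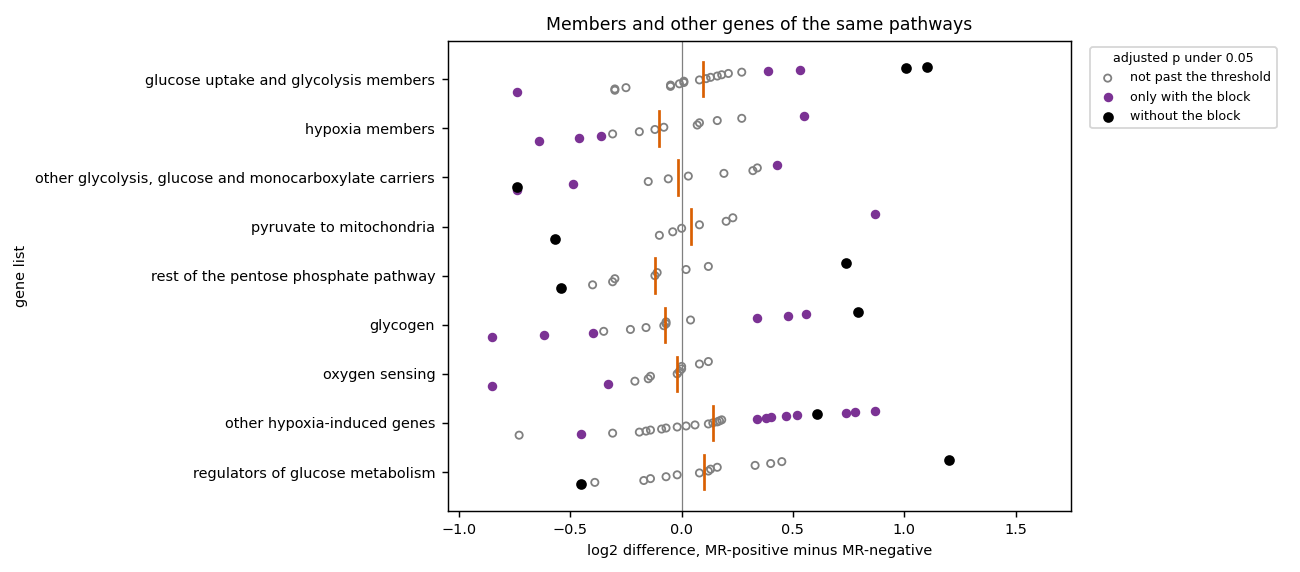
Log2 difference, MR-positive minus MR-negative cells (x axis), of every measured gene in the 2 member lists and 7 further lists (y axis), spread vertically within each list to part the points. Black points passed without the block, purple points only with it, open circles in neither, and orange lines are list medians. List medians lie between -0.12 and 0.14.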

How the data were processed

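Per the labels' protocols, biotin-labelled cRNA of sorted cells was hybridised to Illumina arrays. The deposited table gives a linear intensity per probe and array, neither scaled nor background-subtracted to judge by its values. Per the file headers each intensity has a p-value, read as detection p because it falls in steps of 1 in 936 as intensity rises. A further deposited table, of intensity after quantile normalization by the authors, served as an alternative. The sources used here do not name the scanner or its software.

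Intensities were background-corrected, quantile normalized and taken to log2 with neqc of limma 3.58.1 (R 4.3.3, offset 16). Probes with detection p under 0.05 on at least 3 of 6 arrays were kept: 16686 of 45281. Of these 14389 had 1 gene symbol in the platform annotation, and a gene's brightest probe on average was used for it. Population was fitted with lmFit and eBayes, with two-sided tests and the Benjamini-Hochberg adjustment across the 16686 probes (threshold 0.05). Errors are standard errors of the fit. Precision is limited by the few arrays. Of the 40 list members 4 have no probe named for them and 4 no probe detected on enough arrays. Values on every array are given for members past the threshold, for Hif1a, Slc2a1, Hk1, Hk3, Gapdh, Ldha and Vegfa, and for some other members, chosen after their values were seen. From other lists up to 4 called genes with the largest differences are named, or the 2 with the smallest p, and further genes called with the block were named after their values were seen. Members and lists were chosen with earlier results of these data known.

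Deviations from the population mean correlated across probes at 0.708 (M1), 0.569 (M2) and 0.275 (M3) between arrays of the same title number, so the numbers were taken to pair arrays and blocked values stand beside results they change. Unlike-numbered arrays among M2 and M3 also correlated, at 0.290 and 0.382, both above the 0.275 of M3. Deviations from a mean of so few arrays are not independent, so M1 arrays set apart can by themselves make M2 and M3 arrays correlate. The pairing within M2 and within M3 therefore rests on the titles. On simulated data for 16686 probes in this comparison, 54 of 100 probes changed by 1 log2 unit and 92 of 100 changed by 2 were recovered, with 4 false calls. The simulation drew independent noise, changed only these probes and held no variation shared by title number. Recovery and false calls in the real comparison may therefore differ. Promoters came from RefSeq's table for build GRCm38.p6, without the 50 bases after the start.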

Additional observations from a re-analysis of the deposited data

How the results depend on the processing

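Alternatives covered the background correction, the scaling between arrays, the filter on dim probes, the error model, the probe standing for a gene, the title number as a block, each array left out and both M1 arrays left out; the block without each pair was added after the data were seen. Of the 2 unblocked calls Eno2 passed in 17 and Hk3 in 13 of 21 alternatives. The fit without background correction and the fit on the authors' normalized values are counted apart there, although they gave the same results. Over all probes 2298 passed, 4628 with the replicate block, 4944 with array weights, and 1151 to 2544 as each array was left out. The count of members called was 2, against 0 with all dim probes tested, where the adjustment covers more probes, 9 with the block, 10 with array weights, 0 to 4 with 1 array left out, 6 without both M1 arrays, and 7, 4 and 6 with the block and without the M1, M2 or M3 pair. By limma no member was called when the MR-negative M3, the MR-positive M2 or the MR-positive M3 array was missing. The other pathway lists gave 8 calls, against 3 with all dim probes, 29 with the block, 27 with array weights, 2 to 10 with 1 array left out, 16 without both M1 arrays, and 18, 20 and 19 with the block and a pair left out. Of the blocked calls over all probes 3814 were made without M1.

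Scaling to equal medians moved the median of all genes from 0.02 to -0.11, the share of calls that are higher from 53.4% to 32.8%, and the glycolysis median from 0.09 to -0.07. It turned the sign of Slc2a6 (-0.01), Pfkl (-0.06), Tpi1 (-0.03), Gapdh (-0.18), Pgk1 (-0.14), Ldhb (-0.06), Slc16a3 (-0.07), Vegfa (-0.07), Hif1a (-0.09) and Ak4 (-0.0018), none of which passed in any alternative. Cyclic loess turned Ldhb (-0.01), the mean over probes Egln1 (0.05), and array weights Hk1 (0.21) and Pfkm (0.07). Without both M1 arrays Hk1 was at 0.21 and Pfkm at 0.0018. With 1 array left out the estimate changed sign in Hk1 (-0.28 to 0.38), Pfkm (-0.20 to 0.20), Ldhb (-0.09 to 0.07), Vegfa (-0.09 to 0.28), Hif1a (-0.20 to 0.27), Pfkl (-0.04 to 0.19), Pgk1 (-0.08 to 0.13), Slc16a3 (-0.01 to 0.18), Egln1 (-0.20 to 0.04), Slc2a6 (-0.01 to 0.28), Ddit4 (-0.30 to 0.02) and Ldha (-0.10 to 0.02). With equal medians the hypoxia median was -0.26. With 1 array left out the glycolysis median ran from 0.00 to 0.19 and the hypoxia median from -0.14 to 0.01. The cause of these changes was not tested. Members near background, such as Eno2 on the MR-negative arrays, can have their fold understated by the offset.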
